A study of Mus musculus with 12 samples.

Results

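The histone cluster genes encode the core histones H2A, H2B, H3 and H4 and the linker histone H1. They were taken from the deposited table as the protein-coding genes whose symbols begin with Hist1h, Hist2h, Hist3h or Hist4h, a choice that uses names and no measured value. This gave 57 genes of the 16335 genes in the table: 5 of type H1, 14 H2A, 15 H2B, 10 H3 and 13 H4. Of these, 50 belong to the large Hist1 cluster on chromosome 13, 4 to Hist2 on chromosome 3, 2 to Hist3 on chromosome 11 and 1, Hist4h4, lies on chromosome 6. The libraries were made from tumors of BVMA01R, a murine sarcoma line, in female C57BL/6J mice. Every group carried the genotype Myf5-Cre;p53-/-;Ass1-/-, so the controls lacked p53 and Ass1 as well. Ass1 encodes argininosuccinate synthetase, which cells need to make arginine. The groups were no treatment, chloroquine (an inhibitor of lysosomal degradation), ADI-PEG20 (a pegylated arginine deiminase, which removes arginine from the blood), and ADI-PEG20 with chloroquine, here called the combination. Each group had 3 libraries. The sources used here give neither doses nor times, nor whether the line is 1 clone, nor whether each library came from its own animal, so the p-values measure the spread between these libraries.

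Most histone protein is made while DNA is copied, from intronless genes that lie in clusters and are switched on together in S phase. Their mRNAs end in a short hairpin, the histone stem-loop, in place of a poly(A) tail. The stem-loop is bound by SLBP and cut to its final end with the help of the U7 small nuclear RNP, and the mRNA is degraded when DNA synthesis stops. Libraries selected by poly(A) therefore miss most of these transcripts, while total RNA depleted of ribosomal RNA, as sequenced here, keeps them. In bulk tumor RNA, a different number of cells in S phase and a different amount of histone mRNA per cell cannot be told apart.

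The deposited values were log2 CPM (reads scaled to the effective size of the library), and the whole reads behind them were recovered as 15501998 to 28410940 per library. ADI-PEG20 library 1 stood apart: 120 genes had 0 reads there, against 7 to 43 in the other libraries. A list of abundant RNAs, mostly without poly(A) tails, summed to 345897 CPM there, against 85586 to 227671 CPM elsewhere. Skeletal muscle markers also differed between libraries. They summed to 9090 CPM in ADI-PEG20 library 1 and 6758 CPM in untreated library 1, and to 746 to 1069 CPM in the combination libraries. Ckm, the muscle creatine kinase, had 85.3 CPM in untreated library 1 and at most 4.14 CPM in the libraries other than that one and ADI-PEG20 library 1. Acta1, a muscle actin of the same list, was spread differently. It had 342, 34.3 and 351 CPM untreated and 464, 498 and 248 CPM with chloroquine. With ADI-PEG20 it had 669, 94.8 and 26.5 CPM, and in the combination 34.1, 57.5 and 29.1 CPM. Of 12 genes listed for the sarcoma line, 11 were in the table and none of these was at 0 in any library. Vim, which encodes vimentin, was at 2089 to 3624 CPM and Myf5, the myogenic factor whose promoter drives the Cre, at 12.3 to 54.4 CPM.

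The stem-loop is the feature that sets these mRNAs apart, so its forms are shown first. A 16-base match with at most 3 differences from the most common form, that of Hist1h1c below, was found 21 to 54 bases after the stop codon in 38 of the 57 genes (3 of type H1, 9 H2A, 8 H2B, 8 H3 and 10 H4), in the GENCODE M21 transcripts on GRCm38.p6. The 16 bases are in capitals below, with 5 bases on each side, on the strand of the gene.
Hist1h1c: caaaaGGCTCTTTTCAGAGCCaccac
Hist1h2bg: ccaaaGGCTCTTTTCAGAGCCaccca
Hist2h2ac: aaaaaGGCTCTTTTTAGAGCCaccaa
Hist1h2bb: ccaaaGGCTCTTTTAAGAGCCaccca
Hist1h3f: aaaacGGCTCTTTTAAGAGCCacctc
Hist1h3g: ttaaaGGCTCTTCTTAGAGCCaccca
Hist1h4f: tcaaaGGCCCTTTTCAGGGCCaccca
Hist4h4: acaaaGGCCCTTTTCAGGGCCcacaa
Hist1h4a: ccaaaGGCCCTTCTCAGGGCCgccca
Hist2h4: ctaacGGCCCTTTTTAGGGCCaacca
The form of Hist1h1c and Hist1h2bg was shared by 21 genes of types H1, H2A, H2B and H3, and stood after the stop codon of only 27 of 22527 coding genes in all. Positions are counted from 1 at the 5′ end of the 16 bases. Hist1h2bb and Hist1h3f, with 3 other genes, carried C10A in the loop, Hist2h2ac carried C10T, and Hist1h3g carried T8C and C10T. The H4 genes paired a different stem: Hist1h4f, Hist4h4 and 5 other H4 genes carried T4C and A13G, changes on the 2 arms that face each other. Hist2h4 and Hist1h4i added C10T to that pair, and Hist1h4a added T8C. The other 19 genes had no match within 3 differences after the annotated stop codon. In several of them none could be found, because the annotated transcript ends at the stop codon. Hist1h2ak, for example, has 393 exonic and 393 coding bases, and Hist1h3h has 411 and 411. The lack of a match therefore does not show that a gene lacks the stem-loop.

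The starts of the genes were compared by 4 short motifs, searched on both strands in windows from 250 bases before to 50 bases after the start (RefSeq, GRCm38.p6). These were CCAAT (bound by NF-Y), TATAAA (the TATA box), ATTTGCAT (the octamer bound by Oct1) and AAACACA (the H1 box). Windows were at hand for 52 of the 57 genes, 53 windows in all. CCAAT was in 83.0% of them against 37.4% of 32851 windows over all genes, TATAAA in 60.4% against 13.6%, the octamer in 20.8% against 1.74%, and the H1 box in 11.3% against 7.18%. The octamer stood in windows of H2A and H2B genes and in none of the other histone windows (6 of 14 and 5 of 14), and the H1 box in 4 of the 5 H1 windows. CCAAT was in all windows of types H1, H2A, H2B and H3 and in 3 of 12 of type H4. H2A and H2B genes that lie head to head can share much of their windows. The same letters then count in both, as the octamer of Hist1h2ae and Hist1h2bg does, so the windows are not all separate. A match is a description of letters and not of binding. The upstream stretches of 4 abundant genes of types H1, H2B, H3 and H4, and of Hist1h2bg, a gene named in a comparison below, are printed with the motifs in capitals.
Hist1h1c: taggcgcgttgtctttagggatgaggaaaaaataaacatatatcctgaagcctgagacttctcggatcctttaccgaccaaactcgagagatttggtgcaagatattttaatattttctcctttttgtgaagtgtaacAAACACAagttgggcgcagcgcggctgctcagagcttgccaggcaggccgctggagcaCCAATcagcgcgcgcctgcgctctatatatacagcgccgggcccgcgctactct
Hist1h2bg: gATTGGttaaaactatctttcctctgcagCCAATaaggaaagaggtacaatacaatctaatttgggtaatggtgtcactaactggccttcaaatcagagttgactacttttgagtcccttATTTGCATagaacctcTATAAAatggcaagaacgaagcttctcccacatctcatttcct
Hist1h2bb: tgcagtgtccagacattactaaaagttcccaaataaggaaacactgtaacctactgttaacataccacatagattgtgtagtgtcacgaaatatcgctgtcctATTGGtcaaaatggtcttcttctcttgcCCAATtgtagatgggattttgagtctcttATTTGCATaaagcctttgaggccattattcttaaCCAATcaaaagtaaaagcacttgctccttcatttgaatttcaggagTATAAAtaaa
Hist1h3c: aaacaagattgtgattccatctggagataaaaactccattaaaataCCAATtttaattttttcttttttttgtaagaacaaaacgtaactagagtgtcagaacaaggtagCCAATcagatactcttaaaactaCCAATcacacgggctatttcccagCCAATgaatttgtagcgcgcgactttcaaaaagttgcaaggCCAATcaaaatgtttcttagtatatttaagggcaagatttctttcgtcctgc
Hist1h4d: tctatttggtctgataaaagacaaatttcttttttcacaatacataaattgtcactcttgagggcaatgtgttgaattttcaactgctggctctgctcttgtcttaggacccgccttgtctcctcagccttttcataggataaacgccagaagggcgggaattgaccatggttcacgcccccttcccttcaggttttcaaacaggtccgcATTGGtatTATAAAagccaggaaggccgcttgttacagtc
They lie at chr13:23738557-23738806 (Hist1h1c, plus strand), chr13:23571221-23571399 (Hist1h2bg, plus), chr13:23746484-23746733 (Hist1h2bb, plus), chr13:23745522-23745771 (Hist1h3c, minus) and chr13:23581318-23581567 (Hist1h4d, plus). The stretch of Hist1h1c holds the H1 box 112 bases and CCAAT 54 bases before the start. That of Hist1h2bg is the whole space up to the start of its H2A neighbour Hist1h2ae, and holds the octamer and a TATA box 59 and 43 bases before the start. Hist1h3c holds 5 copies of CCAAT. Such head-to-head H2A and H2B neighbours numbered 11 pairs, 176 to 302 bases apart. Per kilobase of annotated exon the H2A gene was the higher in 5 and the H2B gene in 6. That count depends on annotated lengths, which differ within pairs, such as 520 bases for Hist2h2ac and 2620 for Hist2h2be. Hist1h2ap counted as the higher at 1.62 CPM against 3.88 CPM for Hist1h2br, which has 2212 annotated exonic bases.

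All 57 genes had reads in every library, from 3 to 6779 per gene, and 42 had over 100 reads in each library. Together they took 29667 to 93864 reads per library, 0.18% to 0.39% of the total. The summed level was 3697, 2896 and 2622 CPM in the untreated libraries, 2997, 2991 and 2582 CPM with chloroquine, 2356, 3001 and 2763 CPM with ADI-PEG20, and 3511, 3528 and 3178 CPM with the combination. Each combination library lay above every chloroquine and ADI-PEG20 library, and untreated library 1 lay above all of them. The rank of untreated library 1 depended on the scaling: as a share of reads it had 0.371%, below combination libraries 1 (0.375%) and 2 (0.389%). The group means were 3072 ± 559 CPM untreated, 2857 ± 238 with chloroquine, 2707 ± 326 with ADI-PEG20 and 3405 ± 197 with the combination (SD, n = 3 each).

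The types kept similar shares of this sum. H3 genes took 23.8% to 26.2% of it over the 12 libraries, H4 genes 22.8% to 25.3%, H1 genes 19.8% to 25.2%, H2A genes 13.8% to 15.5% and H2B genes 11.0% to 15.1%. In each type the combination had the highest group mean. For the linker histones it was 764 ± 38.4 CPM, against 673 ± 80.3 untreated, 615 ± 21.3 with chloroquine and 634 ± 69.3 with ADI-PEG20 (SD, n = 3 each). For H4 the means were 815 ± 64.5, 763 ± 150, 714 ± 53.6 and 627 ± 81.9 CPM in the same order, with wide overlap between the combination and the untreated libraries.

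**Figure D1:**
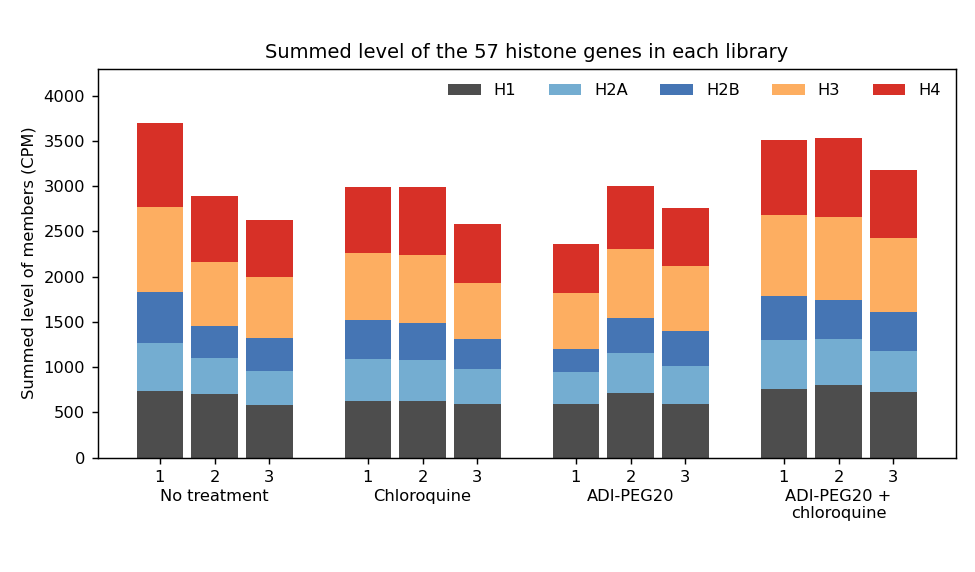
Summed level of the histone cluster genes in CPM (y axis), as 1 stacked bar per library (x axis, grouped by treatment), with the histone types in color. Each combination bar is taller than every chloroquine and ADI-PEG20 bar, and the bar of untreated library 1 is the tallest.

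Among the linker histones Hist1h1c was the most abundant, at 185 to 257 CPM (median 212), with 30.2% to 35.2% of the H1 sum, followed by Hist1h1e at 141 to 198 CPM, and Hist1h1b was the lowest at 54.6 to 101 CPM. These H1 proteins bind the DNA that enters and leaves the nucleosome. Among the H2A genes Hist1h2ak had 98.2 to 167 CPM and Hist1h2ab 59.9 to 119 CPM, whereas Hist3h2a had only 0.385 to 1.83 CPM, from 9 to 41 reads. The leading H2B genes were Hist1h2bb at 45.8 to 112 CPM and Hist1h2bc at 49.4 to 85.8 CPM. Hist1h2ba, an H2B known from testis, had 6 to 25 reads per library, and none of 10 germ cell markers was among the genes of the table. Hist1h3c and Hist1h3f led the H3 genes, the former at 147 to 227 CPM, and Hist2h3c2 was the lowest at 2.44 to 4.58 CPM. Hist1h4d (118 to 237 CPM) and Hist1h4c (66.9 to 148 CPM) led the H4 genes, with Hist1h4b at 0.19 to 2.22 CPM from 3 to 33 reads. Per kilobase of exon, among the 41 genes with at most 1000 exonic bases, Hist1h2ak was the highest at 334 CPM per kilobase, followed by Hist1h3c at 292, Hist1h4f at 229, Hist1h4h at 209 and Hist1h2ab at 181.

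Many of these genes are near copies, which limits what a read can be assigned to. In 29 of the 57 genes, under 50% of the 50-base windows of the transcript were unique among all transcripts, and 6 genes have a coding sequence identical to another's: Hist1h2ao and Hist1h2ap, Hist1h2bq and Hist1h2br, and Hist1h4m and Hist1h4n. Genes with at least 50% unique windows had a median level of 5.94 log2 CPM and the others 4.23, so the low level of a near copy is uncertain. In addition 17 genes share exonic bases with another gene, and how reads with several matches and the strand were treated is not given in the sources used here.

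The libraries were then compared over the 57 genes. The combination libraries had 51, 49 and 43 genes above the gene's own mean over the 12 libraries, with median deviations of 0.24, 0.22 and 0.12 on the log2 scale. Untreated library 1 had 48 genes above and a median of 0.32, while the other untreated libraries had 22 and 9. ADI-PEG20 library 1 had 6 genes above and a median of -0.38. Untreated library 1 was the highest library for 26 genes and ADI-PEG20 library 1 the lowest for 25. The 2 libraries richest in muscle markers thus lie at opposite ends of the histone range, and the part of muscle RNA in these values was not tested. By group mean, the combination was the highest for 48 of the 57 genes and ADI-PEG20 alone the lowest for 35.

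**Figure D2:**
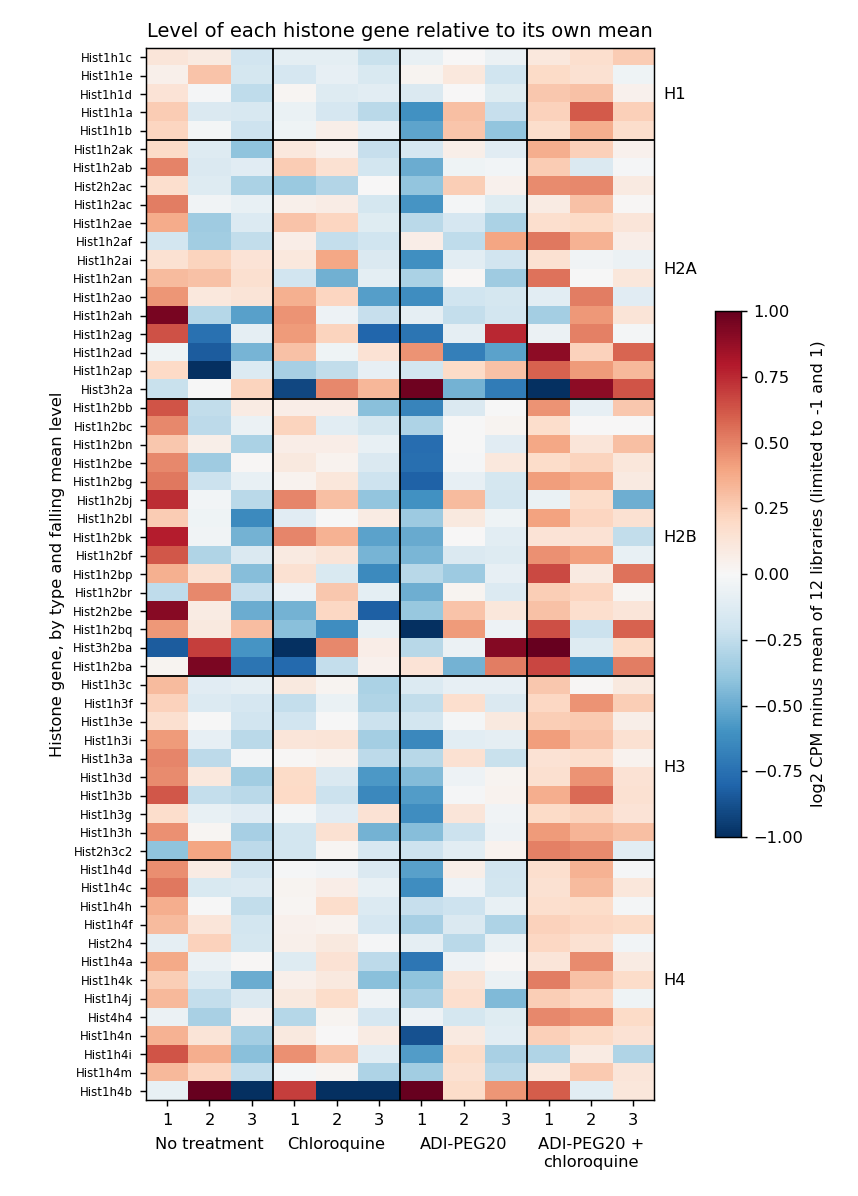
Deviation of each histone cluster gene (rows, grouped by histone type) from its own mean over the 12 libraries (columns, grouped by treatment), in log2 CPM, as color. The combination columns are mostly above 0, untreated library 1 is the highest column and ADI-PEG20 library 1 the lowest.

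Chloroquine added to ADI-PEG20 was compared with ADI-PEG20 alone. In the combination 56 of 57 genes were higher than with ADI-PEG20 alone, by a median of 0.36 on the log2 scale, against a share of 51.1% of all genes and a median near 0. None of the 57, and none of the 16335 genes (0.0%), passed an adjusted p of 0.05 in limma, where the smallest adjusted p of a histone gene was 0.89. Voom on the recovered reads also called 0 histone genes, here and in the comparisons that follow. At an unadjusted p under 0.05, 13 histone genes were higher and 0 lower, against 1.41% and 2.01% of all genes. In 28 genes all 3 combination libraries lay above all 3 ADI-PEG20 libraries, 49.1% of the histone genes against 4.70% of all genes, and in 0 the reverse, against 4.47%. Without ADI-PEG20 library 1 the median was 0.24, with 51 genes higher. Without that library 29 genes had no overlap, 50.9% against 7.01% of all genes.

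The difference ran through all types. Higher in the combination were 5 of 5 H1 genes (median 0.29), 14 of 14 H2A (0.33), 15 of 15 H2B (0.36), 10 of 10 H3 (0.38) and 12 of 13 H4 (0.39). The single lower gene was Hist1h4b at -0.43 (SE 0.77), the H4 gene with 3 to 33 reads. Genes with at least 50% unique windows (28 of 28 higher) and near copies (28 of 29 higher) had the same median of 0.36. Genes that span over 1000 bases, which include spliced forms, had 17 of 17 higher with a median of 0.37.

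**Figure D3:**
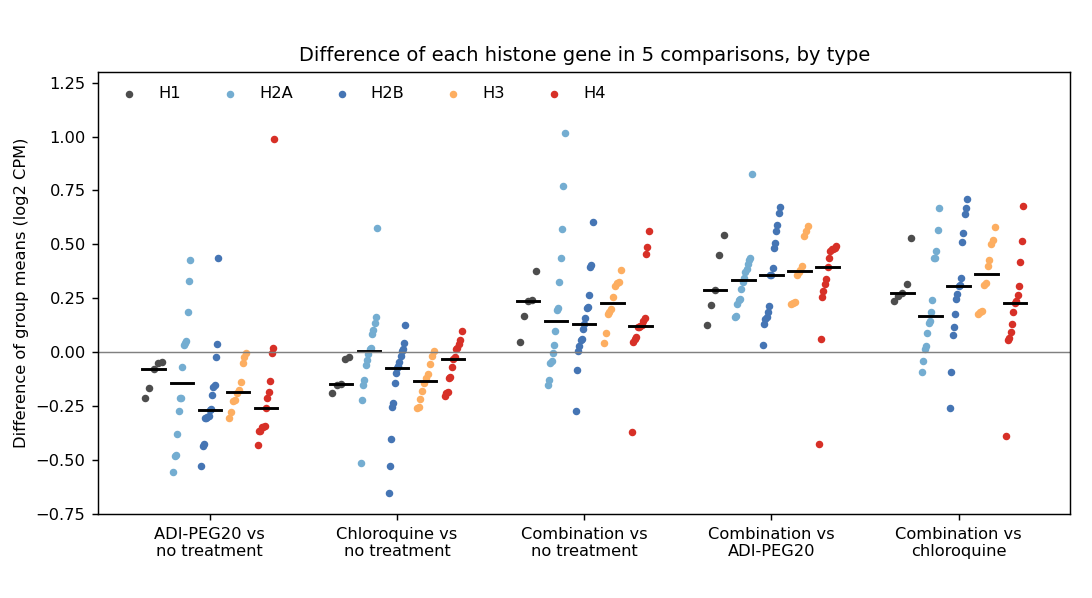
Log2 difference of group means (y axis) for each histone cluster gene (points) by comparison (x axis), with the histone types in color. The median of each type is marked and a line is drawn at 0. In the combination against ADI-PEG20 alone 56 of 57 points are above 0, and in ADI-PEG20 against no treatment 10 of 57 are.

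Hist1h4f (ENSMUSG00000069274, GRCm38 chr13, 23551258 to 23551648, minus strand) encodes an H4 and gave the smallest p. Its level was 104, 102 and 101 CPM in the combination and 70.1, 79.9 and 71.6 CPM with ADI-PEG20, against 110, 96.1 and 77.7 CPM untreated and 90.9, 90.8 and 78.6 CPM with chloroquine. The combination libraries lay close together and above both single-agent groups, within the range of the untreated ones. The difference from ADI-PEG20 was 0.47 on the log2 scale (SE 0.14, limma adjusted p = 0.89). Hist4h4 (ENSMUSG00000096010, chr6, 136801553 to 136804415, minus strand), the H4 gene outside the clusters, had 28.1, 27.4 and 23.0 CPM in the combination, 19.5, 17.8 and 18.5 CPM with ADI-PEG20, 16.5, 20.5 and 17.9 CPM with chloroquine and 19.3, 16.02 and 20.7 CPM untreated. Its lowest combination library was above every library of the other groups. The difference from ADI-PEG20 was 0.49 (SE 0.17, limma adjusted p = 0.89). Hist1h2bg (ENSMUSG00000058385, chr13, 23571396 to 23572013, plus strand), an H2B gene, had 66.4, 64.2 and 52.9 CPM in the combination against 28.4, 47.0 and 44.0 CPM with ADI-PEG20. The groups did not overlap, and the difference was 0.65 (SE 0.22, limma adjusted p = 0.89). Without ADI-PEG20 library 1, the lowest of the 12, it was 0.42. Chloroquine gave 51.0, 53.9 and 43.2 CPM and no treatment 71.8, 42.8 and 47.2 CPM.

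**Figure D4:**
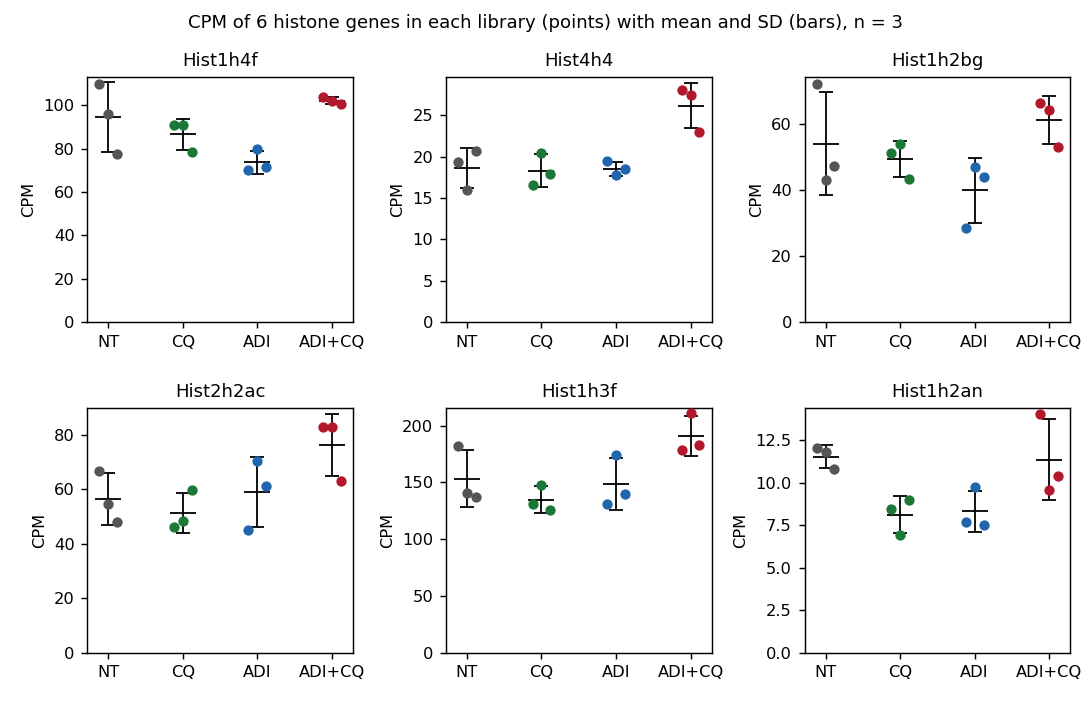
Level in CPM (y axis) of single histone cluster genes in each library (points) by treatment group (x axis), with the group mean and SD as bars. Hist4h4 has all 3 combination libraries above the other 9, while Hist1h4f in the combination lies within the range of the untreated libraries.

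Adding ADI-PEG20 to chloroquine gave a similar picture, with the combination libraries in common. Against chloroquine alone 52 of 57 genes were higher in the combination (51.4% of all genes), with a median of 0.26. The limma test called 0 histone genes and 0.0% of all genes, with a smallest adjusted p of 0.54. At an unadjusted p under 0.05, 9 histone genes were higher and 0 lower, against 3.11% and 3.67% of all genes, and 23 genes (40.4%) had all combination libraries above all chloroquine libraries, against 8.78%. The reverse held for 0 histone genes and 9.57% of all genes. All 5 H1 genes were among these 23. By type, 5 of 5 H1, 12 of 14 H2A, 13 of 15 H2B, 10 of 10 H3 and 12 of 13 H4 genes were higher.

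Hist1h3f (ENSMUSG00000100210, chr13, 23544052 to 23545312, plus strand), an H3 gene, had 179, 211 and 183 CPM in the combination against 131, 148 and 126 CPM with chloroquine, with no overlap. The difference was 0.50 on the log2 scale (SE 0.16, limma adjusted p = 0.54). In untreated tumors it had 182, 141 and 138 CPM, where library 1 reached the level of the combination. Hist2h2ac (ENSMUSG00000068855, chr3, 96220361 to 96220880, minus strand), an H2A gene with the C10T stem-loop, had 82.8, 83.0 and 63.2 CPM against 46.1, 48.4 and 59.6 CPM with chloroquine. That difference was 0.57 (SE 0.20, limma adjusted p = 0.60), and Hist4h4 differed by 0.52 (SE 0.17, limma adjusted p = 0.55). Lower in the combination by the smallest p were Hist1h4i (-0.39), Hist1h2bj (-0.26) and Hist1h2ai (-0.09).

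Against no treatment the combination was less apart. Of the 57 genes 49 were higher (50.8% of all genes), by a median of 0.16, and limma called 0 (0.0% of all genes) with a smallest adjusted p of 0.46. At an unadjusted p under 0.05, 4 were higher and 0 lower, against 4.70% and 3.95% of all genes, which is near the background. The groups did not overlap in 4 genes, all higher, against 7.46% of all genes (7.92% lower). Untreated library 1 weighed on this comparison: without it the median was 0.31, with 52 genes higher, and 35 genes (61.4%) had no overlap against 13.8% of all genes. Without untreated library 3 the median was 0.08, with 37 genes higher. Hist1h2af (ENSMUSG00000061991, chr13, 23533906 to 23534304, plus strand), an H2A gene, had 39.5, 34.8 and 28.7 CPM in the combination against 24.2, 21.5 and 23.1 CPM untreated, a difference of 0.57 (SE 0.19, limma adjusted p = 0.46). Its chloroquine and ADI-PEG20 libraries, at 23.0 to 36.0 CPM, reached into the range of the combination. By type, 5 of 5 H1 genes were higher (median 0.24), 9 of 14 H2A (0.15), 13 of 15 H2B (0.13), 10 of 10 H3 (0.23) and 12 of 13 H4 (0.12). Hist4h4 was higher by 0.49 (SE 0.17, limma adjusted p = 0.47). Hist1h2ad, an H2A gene with 1.23 to 4.15 CPM over all libraries, was higher by 1.01 (SE 0.39, limma adjusted p = 0.52). The genes lower by the smallest p were Hist1h4i (-0.37), Hist1h2bj (-0.27) and Hist1h2ai (-0.15).

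Each agent alone was compared with the same untreated libraries, which both comparisons share. With ADI-PEG20, 10 of 57 genes were higher (48.7% of all genes) and the median was -0.21. The limma test called 0 (0.0% of all genes, smallest adjusted p of a histone gene 0.55), and at an unadjusted p under 0.05, 0 were higher and 3 lower, against 5.17% and 3.13% of all genes. No gene had all ADI-PEG20 libraries above the untreated ones and 3 had all below, against 5.57% and 4.54% of all genes. The 3 lower at that p were Hist1h2ai (-0.47, SE 0.19), Hist1h4f (-0.35, SE 0.14) and Hist1h2an (-0.48, SE 0.21). Hist1h2ai (ENSMUSG00000071516), an H2A gene, had 12.2, 17.4 and 16.4 CPM with ADI-PEG20 against 20.8, 21.8 and 20.6 CPM untreated, with no overlap. By type, 0 of 5 H1, 6 of 14 H2A, 2 of 15 H2B, 0 of 10 H3 and 2 of 13 H4 genes were higher with ADI-PEG20. The smallest p among the higher genes belonged to Hist1h2af (0.33), Hist1h4b (0.99, SE 0.77) and Hist1h2ap (0.43). This direction rested on 2 libraries: the median was -0.05 without untreated library 1, -0.09 without ADI-PEG20 library 1, and 0.05 with 39 genes higher when both were left out, a setting chosen after the data were seen. With chloroquine, 17 genes were higher (49.3% of all genes), the median was -0.06, and limma called 0 (0.0% of all genes). At an unadjusted p under 0.05, 0 were higher and 1 lower, against 2.06% and 1.33% of all genes. No gene had all chloroquine libraries above the untreated ones and 2 had all below, against 3.69% and 3.72% of all genes. The gene lower at that p was Hist1h2an (ENSMUSG00000069309), at 8.44, 6.90 and 9.01 CPM with chloroquine against 12.03, 11.8 and 10.8 CPM untreated, a difference of -0.51 (SE 0.21, limma adjusted p = 0.999). Next by p were Hist1h2bq (-0.65) and Hist1h1e (-0.19) among the lower genes, and Hist1h2ad (0.57) and Hist1h2af (0.14) were among the higher. Without untreated library 1 the median for chloroquine was 0.04, with 33 genes higher, and without chloroquine library 3 it was near 0, with 29 higher. Without untreated library 3 it was -0.20, with 8 higher.

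The interaction of the 2 agents was above 0 for 56 of 57 genes, with a median of 0.40, against 50.4% of all genes above 0 and 49.6% below. Limma called 0 (0.0% of all genes, smallest adjusted p of a histone gene 0.82), and 9 genes were above 0 at an unadjusted p under 0.05 with 0 below, against 1.90% and 2.36% of all genes. By type the medians were 0.37 for H1, 0.24 for H2A, 0.53 for H2B, 0.47 for H3 and 0.47 for H4. With 1 library left out at a time the median over all 57 ranged from 0.32 to 0.49. With both untreated library 1 and ADI-PEG20 library 1 left out, chosen after the data were seen, it was 0.21. The genes with the smallest p were Hist1h2an (0.95, SE 0.30), Hist1h4f (0.59, SE 0.20) and Hist1h3h (0.80, SE 0.31), and the single gene below 0 was Hist1h4b (-0.31, SE 1.08). Averaged over chloroquine states, ADI-PEG20 gave 32 genes higher (49.3% of all genes) and a median of 0.02. At an unadjusted p under 0.05, 3 were higher and 0 lower, against 5.42% and 4.38% of all genes. These were Hist1h2af (0.38), Hist2h2ac (0.31) and Hist4h4 (0.26), and none of the 57 was separated between all libraries with and without ADI-PEG20, against 0.441% of all genes higher. The sign of that median was not stable: it was -0.01 when each library was centred on the median of all genes, and ranged from -0.04 without ADI-PEG20 library 2 to 0.10 (46 genes higher) without untreated library 1. It was 0.09 (42 genes) without ADI-PEG20 library 1 and 0.16 (50 genes) without both of the libraries numbered 1, the last chosen after the data were seen. Averaged over ADI-PEG20 states, chloroquine gave 51 genes higher (51.9% of all genes) and a median of 0.13. At that p, 2 were higher and 0 lower, against 1.01% and 1.22% of all genes. These were Hist1h2ad (0.70) and Hist1h2ae (0.29). The lower genes with the smallest p in that average were Hist2h2be (-0.17), Hist1h4b (-0.27) and Hist1h1e (-0.03), and limma called 0 histone genes (0.0% of all genes) in both averages. The median for chloroquine was 0.06 without ADI-PEG20 library 1 and 0.21 without untreated library 1, the lowest and highest with 1 library left out.

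Genes of DNA replication and of histone supply gave a range of values beside these. Of 40 S-phase replication genes, 34 were higher in the combination than with ADI-PEG20, by a median of 0.27, with 0 at an unadjusted p under 0.05. Among them Pola1, a subunit of DNA polymerase alpha, differed by 0.42 and Mcm3, part of the replicative helicase, by 0.31. Against chloroquine, however, 26 of 40 were higher with a median of 0.05, beside 0.26 for the histone genes, and against no treatment 20 of 40 with a median of 0.00, beside 0.16. Named by p against chloroquine were Pcna, the sliding clamp of DNA polymerase (0.52), and Tyms, which makes thymidylate (0.37). With ADI-PEG20 alone, 6 of 40 were higher than untreated (median -0.24, beside -0.21 for the histone genes), and Rrm2, a subunit of ribonucleotide reductase, differed by -0.42. The mean log2 level of the histone genes minus that of the replication genes was -0.27, -0.16 and -0.14 in the combination libraries, -0.30, -0.43 and -0.22 with ADI-PEG20, -0.38, -0.49 and -0.37 with chloroquine and -0.29, -0.38 and -0.51 untreated. The combination libraries overlapped those of ADI-PEG20 alone on this measure and lay above all chloroquine and untreated ones.

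**Figure D5:**
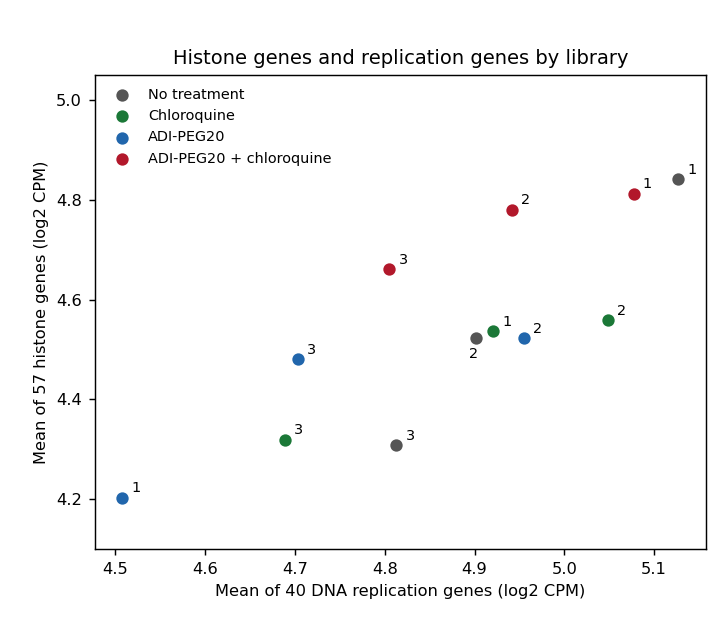
Mean log2 CPM of the 57 histone cluster genes (y axis) against that of 40 S-phase replication genes (x axis), 1 point per library, with the treatment groups in color. The histone mean minus the replication mean is -0.27 to -0.14 in the combination libraries and -0.51 to -0.29 in the chloroquine and untreated ones.

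Of 22 genes of G2 and mitosis, 21 were higher in the combination than with ADI-PEG20 (median 0.24), but 8 were higher than with chloroquine (median -0.08) and 7 than untreated (median -0.06). Nuf2, a kinetochore protein, differed by 0.65 from ADI-PEG20, and Plk1, a mitotic kinase, by -0.49 from chloroquine. The genes listed as replication-independent histones, which are variant histone genes apart from the cluster genes, were split: 6 of 11 were higher than with ADI-PEG20 (median 0.04), 7 than with chloroquine (0.01) and 5 than untreated (-0.06). H3f3b, which encodes the H3.3 variant, was 0.39 higher than with ADI-PEG20 (SE 0.15, limma adjusted p = 0.89) and 0.48 higher than with chloroquine (limma adjusted p = 0.54). Genes of histone mRNA processing had 17 of 26 higher than with ADI-PEG20 (median 0.12) and 15 of 26 than with chloroquine (median 0.03). In this list Snrpe, a core protein of small nuclear RNPs, differed by 0.69 and Upf1, a helicase of mRNA decay, by -0.28 from ADI-PEG20. Histone chaperones had 17 of 21 higher than with ADI-PEG20 (median 0.16) and 13 of 21 than with chloroquine (median 0.06). Against chloroquine, Daxx, a chaperone of H3.3, differed by -0.66 and Hira, another, by 0.36. The list of abundant RNAs, mostly without poly(A) tails, had 7 of 16 higher than with ADI-PEG20 (median -0.04).

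Cell type markers moved with the comparisons as well. All 21 muscle markers were lower in the combination than in each other group, with medians of -1.76 against ADI-PEG20, -2.53 against chloroquine and -2.17 against no treatment. Macrophage markers were higher, 18 of 18 against ADI-PEG20 (median 0.17), 18 of 18 against chloroquine (0.55) and 17 of 18 against no treatment (0.68), and summed to 2115 to 2678 CPM in the combination, 1885 to 2403 with ADI-PEG20, 1408 to 1864 with chloroquine and 1474 to 1681 untreated. Erythroid markers summed to 34.2 to 204 CPM in the combination and 20.04 to 46.9 with ADI-PEG20. The genes listed for the sarcoma line summed to 3233 to 3834 CPM in the combination and 3664 to 4219 with ADI-PEG20. Most of that sum was Vim, at 2089, 2871 and 2419 CPM in the combination and 2730, 2633 and 2630 CPM with ADI-PEG20. The sum was therefore not taken as a measure of tumor cells. The part of these cell types in the histone differences was not tested.

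The authors' deposited table of comparisons also called none of the 57 genes at an adjusted p of 0.05 in any of its 6 comparisons. Over all genes it called 1 for the combination against chloroquine and 0 in each of the others. In the authors' deposited table, histone genes higher in the combination than with ADI-PEG20 numbered 53 (median 0.26), those higher than with chloroquine 49 (0.25) and those higher than untreated 47 (0.17). With ADI-PEG20 alone, the authors' deposited table had 14 of 57 higher than untreated (median -0.12). At an unadjusted p under 0.05 the authors' deposited table held 12 histone genes for the combination against ADI-PEG20, 11 against chloroquine, 8 against no treatment and 0 for ADI-PEG20 against no treatment. The counts at that p were not split by direction. For these counts and those of higher genes, the share over all genes of the authors' table was not computed. They therefore cannot be set against a background.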

How the data were processed

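RNA from 12 tumor libraries in 4 groups of 3 was analysed from the authors' deposited table. Its per-library columns hold log2 CPM of genes after the authors' normalization, per the file headers; its comparison columns hold the authors' log2 fold changes and p-values and a signed linear fold change made by the authors, a score that was not used. The submitters' processing notes name mm10, STAR 2.5.1a, featureCounts 1.4.6-p5, Salmon 0.8.2, bcl2fastq, Subread, edgeR and limma, without order. The strand setting, the annotation release and the treatment of reads with several matches are not given in the sources used here. The table held 16386 lines, of which 51 repeated a gene; 16335 genes remained.

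Whole reads were recovered from the log2 CPM with a pseudocount of 0.5 reads (100% of values under 2000 reads whole within 0.02 reads), giving 15501998 to 28410940 reads per library. Precision is limited by 3 libraries a group. The tests were limma 3.58.1 (R 4.3.3) on the log2 CPM of all genes in 1 fit of the 4 groups, with a trended prior, two-sided, and Benjamini-Hochberg adjustment over 16335 genes at 0.05. The script was tested on simulated data. Summaries, sequences and figures used Python 3.11.15, pandas 2.3.3, numpy 2.4.6 and matplotlib 3.10.9. Stem-loops were searched in GENCODE M21 transcripts and motifs in RefSeq promoter windows.

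The members and lists were chosen with earlier results of these data known. Genes named by level or p were drawn mainly from fixed ranks. These were, per histone type, the 2 highest and the lowest by mean level, and per comparison the 3 smallest p in each direction. Per related list they were the 2 smallest p in a comparison. Not every gene of these ranks was printed. Alternatives were voom on the recovered reads (also with library weights), no trend, the replicate number as a block, centring on the median of all genes, plain totals, a filter at a mean log2 CPM of 1, a pseudocount of 2 reads, and each library left out. All 12 sample columns were used.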

Additional observations from a re-analysis of the deposited data

Results flagged for a closer look

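Hist1h2an, an H2A gene, differed between the contexts of ADI-PEG20: without chloroquine the ADI-PEG20 libraries were -0.48 from the untreated ones on the log2 scale, and with chloroquine they were 0.47 from the chloroquine ones. All libraries of each context lay on opposite sides. The levels were 7.70, 9.72 and 7.53 CPM with ADI-PEG20 against 12.03, 11.8 and 10.8 CPM untreated, and 14.03, 9.59 and 10.4 CPM in the combination against 8.44, 6.90 and 9.01 CPM with chloroquine. The difference of the differences was 0.95 (SE 0.30, limma adjusted p = 0.82) and was not called. Of the gene's 50-base windows, 14.2% are unique among all transcripts, and how reads of its near copies were assigned is not given in the sources used here.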

How the results depend on the processing

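No histone gene was called by limma in any of the 8 comparisons under any alternative run, voom and the replicate block included. The median histone difference moved by more than a set spread once: for ADI-PEG20 against no treatment it was 0.054 with both untreated library 1 and ADI-PEG20 library 1 left out, an alternative chosen after the data were seen. That spread was 0.23, the SD between libraries of a group in the median log2 CPM of the histone genes. It exceeds several of the medians, so a median can change sign within it. For chloroquine against no treatment it went from -0.06 to 0.04 without untreated library 1. With 1 library left out at a time the medians ranged from -0.31 to -0.05 for ADI-PEG20 and from -0.20 to 0.04 for chloroquine against no treatment, and for the combination from 0.08 to 0.31 against no treatment, 0.24 to 0.46 against ADI-PEG20 and 0.22 to 0.32 against chloroquine. For ADI-PEG20 and chloroquine averaged over the states of the other agent they ranged from -0.04 to 0.10 and from 0.06 to 0.21. Scaling by plain totals moved the median of all genes to 0.17 (combination against no treatment), 0.17 (against ADI-PEG20) and 0.12 (against chloroquine), and the histone medians minus these were 0.16, 0.35 and 0.25. For chloroquine against no treatment 26 histone genes were higher under plain totals (57.8% of all genes) and 10 after centring (45.6% of all genes).

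With the replicate number as a block the medians were the same (0.36 for the combination against ADI-PEG20) and 0 histone genes were called, with a smallest adjusted p of 0.86 there. The labels do not say that numbers mark a shared animal or day. To compare libraries, each gene's group mean was first taken out of the log2 CPM. What remained correlated at -0.05 to 0.20 between same-numbered libraries over 18 pairs, 9 of them over 0.1. Differently numbered libraries of different groups ranged from -0.24 to 0.19. Of the 12 libraries, 9 correlated best with one of their own number. The 3 deviations of a gene within a group sum to 0, so these pairs are not independent. The numbers were not taken as pairs in the main fit, and what same-numbered libraries share was not tested. For the combination against no treatment the smallest limma adjusted p of a histone gene was 0.31 with the block and 0.46 without it. With the block limma called 4 genes higher and 4 lower for the combination against no treatment and 21 higher and 10 lower for ADI-PEG20 averaged over chloroquine states, none of them a histone gene. Voom with library weights called 23 higher and 24 lower for that average and 1 lower for the combination against chloroquine, again no histone gene.

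Single genes near 0 changed sign, and the cause was not tested. Hist1h2bj in the combination against no treatment was 0.024 with both libraries out, and ranged from -0.48 to 0.024 with 1 library out. Hist1h2ai was 0.016 against no treatment and 0.020 against chloroquine under plain totals, and ranged from -0.22 to 0.043 against chloroquine with 1 library out. Hist1h4b, at 3 to 33 reads, ranged from -1.03 to 0.56 in the interaction and from -0.70 to 0.088 for chloroquine averaged over ADI-PEG20 states, where voom with library weights gave 0.085. For that same average Hist2h2be ranged from -0.34 to 0.016 and Hist1h1e from -0.089 to 0.027, with 0.012 for Hist1h1e under voom with weights and 0.078 under plain totals.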
